A study of Mus musculus with 3 samples.

Results

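The genes described here encode chemokines, interleukins, the tumour necrosis factor (TNF) family, colony-stimulating factors, their receptors, and a few proteins named for induction by TNF. They are the 177 genes whose name in the array files begins with Ccl, Ccr, Cxcl, Cxcr or Il and a digit, or with Tnf, Tnfsf, Tnfrsf or Csf, out of 27667 gene names on the array, with Il6, Il6st, Tnfrsf10b and Tnfaip3 left out by the rule. They were represented by 246 probes. RNA of mouse neural stem cells (NSCs, dividing precursors of neurons and glia) of genotype Dnmt3a-/- (knockout, KO) was set against that of wild-type (WT) cells, with 1 biological replicate on each of 3 two-colour Agilent arrays. Both kinds of NSC came from mouse embryonic stem cells by culture in serum-free medium with EGF and bFGF. The RNA labelled KO carried Cy3 and the RNA labelled WT carried Cy5 on all 3 arrays, so a preference of a probe for 1 dye and the difference between the genotypes cannot be told apart. The labels do not say how many independent cell clones lay behind the replicates, so the p-values measure only the spread between these 3 arrays, which may be technical. Values are log2 ratios, labelled KO over labelled WT, and a gene was called higher or lower at a Benjamini-Hochberg adjusted p under 0.05 in limma over all genes tested.

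Chemokines are small secreted proteins that guide migrating cells through G protein-coupled receptors on the cell surface. Interleukins and TNF ligands are secreted or membrane-bound signals whose receptors act through JAK kinases, the Myd88 adaptor or TRAF adaptors, many of them ending in NF-kappaB, and decoy receptors that bind a ligand without passing the signal on limit their reach. In the brain these genes are best known from microglia, astrocytes and infiltrating leukocytes, and neural precursors also respond to several of them, Cxcl12 among them. Dnmt3a encodes a de novo DNA methyltransferase.

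The labels were first set against the targeted gene and against cell type markers. Dnmt3a itself went against its label: its log2 ratios were 1.07, 0.97 and 0.92, which is 1.99-fold higher in the RNA labelled KO (adjusted p = 1.0e-06), so every direction here is that of the label. Its probe spans chromosome 12 from 3825243 to 3826024 on mm7, and which part of Dnmt3a had been removed in these cells is not stated, so the probe may lie outside it. Whether the labels had been exchanged was not tested, and an exchange would turn every direction given here. The 12 neural stem cell markers on the array were all well above background, with 2 higher, 8 lower and 2 not called in labelled KO. All 3 arrays lay on 1 slide. A gene was tested when a probe was well above background on all 3 arrays in at least 1 channel, which kept 18055 genes, and the arrays' ratios correlated across genes at r = 0.906 to 0.928, although genes are not independent replicates. The median gene lay at -0.01 with a median SD of 0.056 between arrays. Of all tested genes 47.9% passed the threshold, so a called difference can be small.

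Of the 177 members, 103 were well above background on all 3 arrays in at least 1 channel (58.2%, against 65.3% of all genes) and could be tested. In both channels on all 3 arrays 92 were well above background, a further 17 members were so on 1 or 2 arrays only, and 57 on no array in either channel. No member was saturated. Which roles were detected differed: among the chemokine ligands 24 of 33 were tested, among the TNF receptors 16 of 21, among the interleukin receptors and antagonists 26 of 40, among the interleukins 13 of 36, and among the chemokine receptors 4 of 16. The members on no array included the interleukins Il1a, Il1b, Il4, Il5 and Il7. An absent signal on these arrays sets a bound and does not show that a gene was silent.

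Of the 103 tested members, 28 were higher in labelled KO (27.2%, against 22.5% of all tested genes), 22 were lower (21.4%, against 25.5%) and 53 were not called. The members' median ratio was 0.03, against -0.01 for all genes tested. Counts given below for single roles and lists stand beside the same shares of all tested genes, 22.5% higher and 25.5% lower. With a difference of at least 1.5-fold as well, 13 members were higher (12.6%, against 1.96% of all tested genes) and 5 were lower (4.85%, against 2.05%), together 17.5% of the tested members against 4.01% of all tested genes. All 3 array ratios lay above 0 for 39 members, a pattern held by 32.1% of all tested genes, and below 0 for 30 members, held by 37.0% of them. In bulk RNA such as this, fewer cells of a type and less RNA per cell cannot be told apart.

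**Figure D1:**
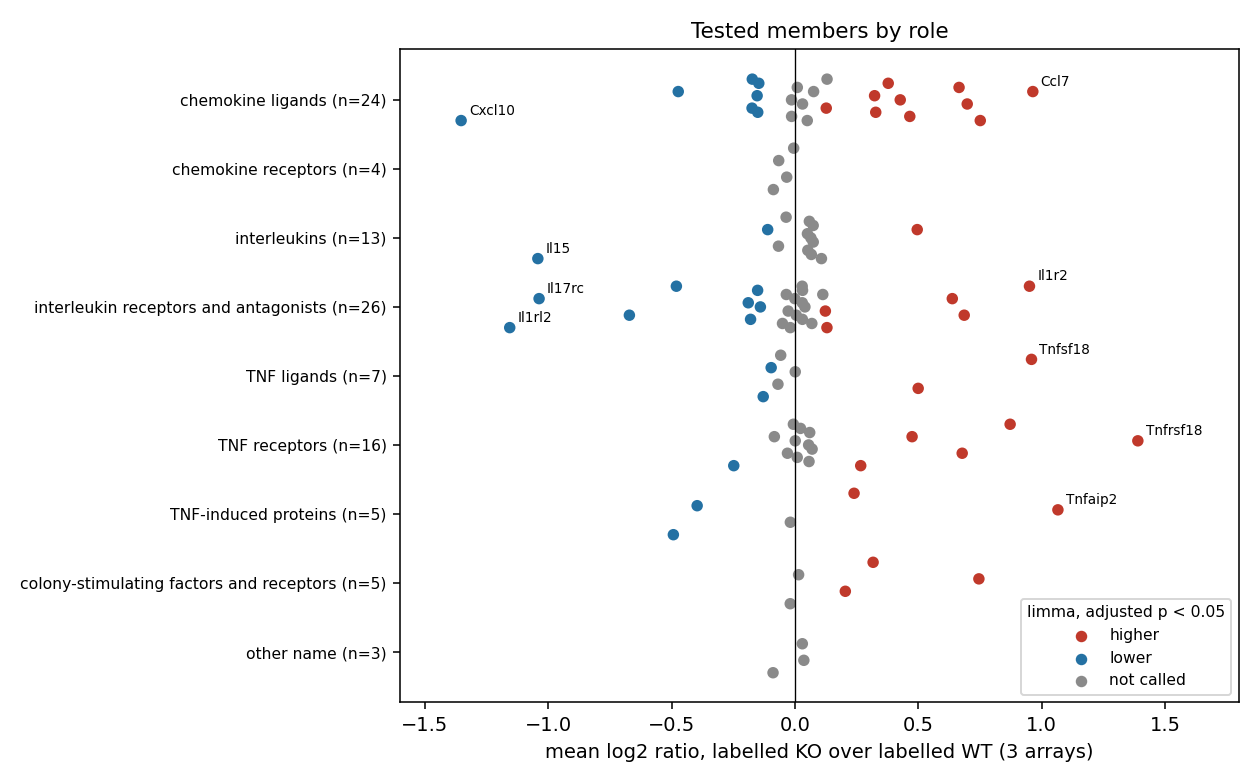
Mean log2 ratio (labelled KO over labelled WT) for each of the 103 tested members, with 1 point per gene, grouped by role on the vertical axis and coloured by the limma call. The points range from -1.35 for Cxcl10 to 1.39 for Tnfrsf18, and the chemokine receptors all sit near 0.

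These counts depended on how the dyes were put on 1 scale. When each array's ratios were only centred on their median in place of the loess curve, the median over tested genes moved to -0.26, 4.21% of all tested genes were called higher and 52.9% lower, and among the members 14 were called higher and 26 lower. Under that setting 8 members called higher fell below 0 and 2 called lower rose above 0. They are named with their values where they are described. None of the 50 called members turned its sign in any other setting tried. The 13 higher and 5 lower members with at least a 1.5-fold difference kept their direction in all 12 alternatives, and all were called in each of them except Csf1 and Ccl11 under median centring.

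The size of a difference depended on the background correction for dim members. Il15 lay at -1.04 in the values reported, at -0.18 with normexp fitted on all spots and at -2.74 with the scanner's processed signals. For Tnfsf18 these values were 0.96, 0.22 and 1.64, for Il1r2 0.95, 0.22 and 1.64, for Il1rl1 0.69, 0.098 and 2.05, for Ccl17 0.67, 0.12 and 1.40, and for Tnfrsf11b 0.68, 0.16 and 1.09. Tnfaip2 (1.07, 0.55 and 1.29), Ccl20 (0.70, 0.35 and 0.76) and Il4ra (0.64, 0.31 and 0.80) followed the same order. The brighter Tnfrsf18 moved less, from 1.39 to 1.16 and 1.49, and Cxcl10 from -1.35 to -1.05 and -1.34. With normexp on all spots 21 members were called higher and 8 lower, beside 12.8% and 17.3% of all tested genes. Of these members, 5 higher and 4 lower differed by at least 1.5-fold. With processed signals 34 members were called higher and 21 lower, beside 19.6% and 20.5% of all tested genes. There 18 higher and 11 lower members differed by at least 1.5-fold. The share of all tested genes with a 1.5-fold difference was not taken in these settings, so the 1.5-fold counts cannot be set against it.

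**Figure D2:**
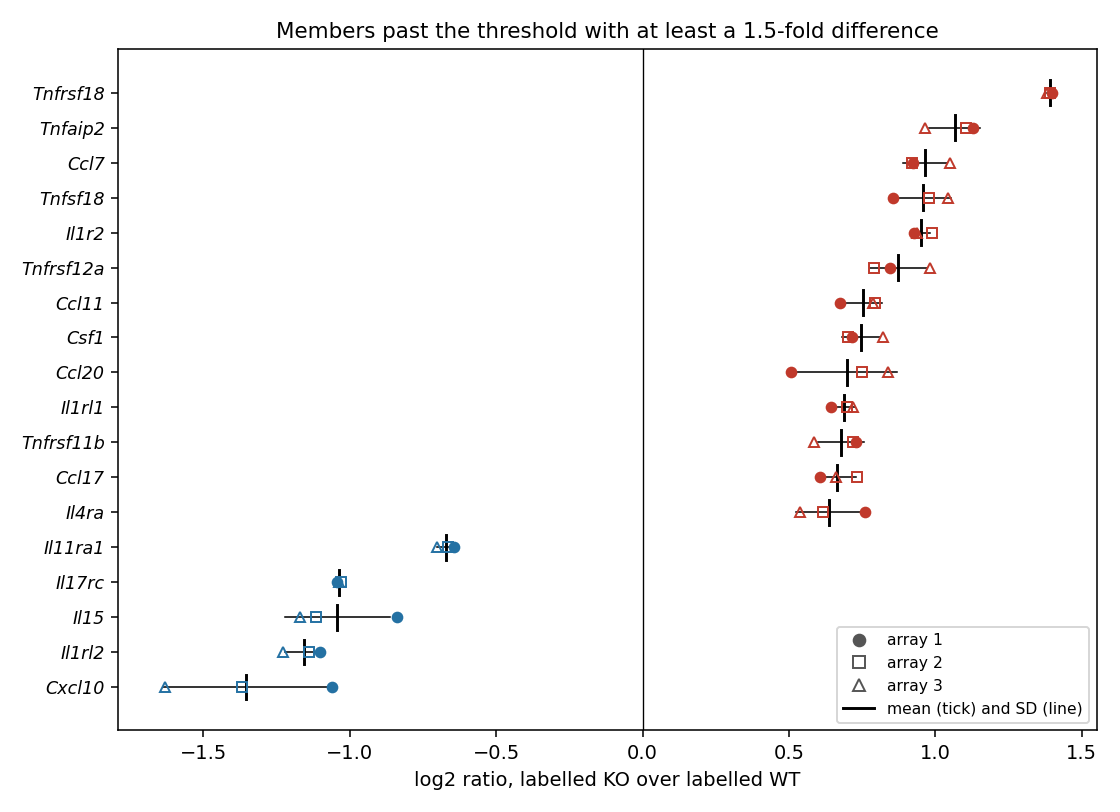
Log2 ratio (labelled KO over labelled WT) on arrays 1, 2 and 3 (symbols) for the 18 called members with at least a 1.5-fold difference, with the mean as a tick and the SD as a line. Every array of a gene lies on the same side of 0, and Cxcl10 has the widest spread, from -1.63 to -1.06.

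The chemokine ligands held differences in both directions: 10 of the 24 tested were higher, 7 were lower and 7 were not called, and 4 of the higher and 1 of the lower differed by at least 1.5-fold. The ligand with the largest rise in these values was Ccl7, a CC chemokine that attracts monocytes, whose log2 intensity was 12.35, 12.35 and 12.47 in the labelled KO channel and 11.43, 11.43 and 11.42 in the labelled WT channel. All 3 labelled KO values lay above all labelled WT values, with ratios of 0.92, 0.92 and 1.05. This was 1.95-fold higher in labelled KO (mean log2 ratio 0.96 ± 0.075, SD, n = 3, adjusted p = 1.2e-06), and a second probe gave 0.79. Ccl17 rose more than Ccl7 with processed signals (1.40 against 0.90), on the authors' deposited values, with an offset of 10 and under median centring. The Ccl7 probe lies on chromosome 11 from 82128729 to 82128788 (mm7). Exon and UTR annotation of mm7 was not used here.

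Ccl11, eotaxin, which attracts eosinophils, had ratios of 0.67, 0.79 and 0.79 and was 1.68-fold higher (0.75 ± 0.067, adjusted p = 3.5e-06). Under median centring Ccl11 lay at 0.20 and was not called (adjusted p = 0.18). For Ccl20, the ligand of Ccr6, the ratios were 0.51, 0.75 and 0.84, the lowest being array 1, and the gene was 1.62-fold higher (adjusted p = 6.0e-05). Ccl17, a ligand of Ccr4, was 1.59-fold higher at ratios of 0.61, 0.73 and 0.66 (adjusted p = 6.0e-06). Ccl2, the chief monocyte attractant and ligand of Ccr2, had ratios of 0.50, 0.43 and 0.47 and was 1.38-fold higher (adjusted p = 2.1e-05), but lay at -0.18 under median centring. Its receptor gene Ccr2 was well above background on no array. Of the other higher ligands, Ccl25 reached 0.43, Cxcl5 0.38, Ccl12 0.33, Ccl9 0.32 and Cxcl14 0.13, and under median centring Cxcl5 lay at -0.04 and Cxcl14 at -0.08. The probes of Ccl25 differed, at 0.43, 0.33 and 0.02, and its call was lost under median centring. Cxcl14 was not called without replicate 3 (adjusted p = 0.15), and Ccl12, Ccl9 and Cxcl14 were not called with normexp fitted on all spots.

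Cxcl10, the ligand of Cxcr3 that interferons induce, fell furthest of the 103 tested members in these values. With the scanner's processed signals Il15 (-2.74), Ccl21c (-2.59), Ccl1 (-1.67), Il12rb1 (-1.59) and Tnfrsf13c (-1.39) fell further than Cxcl10 (-1.34). Il15 also did so with an offset of 10 (-1.69 against -1.42). The log2 intensity of Cxcl10 was 9.42, 9.10 and 9.04 in the labelled KO channel and 10.48, 10.46 and 10.67 in the labelled WT channel, so the channels did not overlap. The ratios of -1.06, -1.37 and -1.63 spread more than those of the other large differences, and the gene was 2.55-fold lower in labelled KO (-1.35 ± 0.29, SD, n = 3, adjusted p = 1.6e-05). The probe lies on chromosome 5 from 92334002 to 92334061 (mm7). Cxcl9 (-0.01) and Cxcl11 (0.13), the other ligands of Cxcr3, were not called. Ccl21c was lower at -0.47 ± 0.099 (adjusted p = 8.1e-05), at -2.59 with processed signals and at -0.058 with normexp on all spots. It belongs to a group of near-identical gene copies that this probe may not separate. Smaller falls were called for Cxcl12 (-0.17), Ppbp (-0.17), Cxcl1 (-0.15), Ccl1 (-0.15) and Ccl27a (-0.15). The brighter probe of Cxcl12 carried its call while its other probe lay at 0.02, and Ccl1, which was at background in the labelled KO channel, lay at 0.02 under median centring. Without replicate 1 the calls of Cxcl1 (adjusted p = 0.16), Ppbp (0.055) and Ccl27a (0.068) were lost, and without replicate 3 that of Ccl27a (0.056). The Cxcl1 call was also lost with processed signals (0.096), on the authors' deposited values (0.0965) and with an offset of 10 (0.098). With the channels fitted separately neither Cxcl1 (0.074) nor Ppbp (0.062) was called. With normexp on all spots none of these 5 ligands nor Ccl21c was called.

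Promoter sequences were read because several members are textbook targets of interferon-activated factors and of NF-kappaB. RefSeq promoters (GRCm38.p6, 250 bases before the start) were matched for 135 of the 177 members. The letters GAAANNGAAA, part of the interferon-stimulated response element, were found on either strand in 3.46% of 27025 promoters of all genes and in 9 of 135 members' promoters. They were held by 1 of 23 higher members (Cxcl14), 1 of 15 lower members (Cxcl10) and 4 of 38 members that were not called. The letters GGGNNTTTCC, a form of the kappaB site, were found on either strand in 1.65% of all promoters and in 13 of 135 members' promoters. Both strings hold GAAA on 1 strand and could overlap. Among the called members with a promoter, the kappaB letters were held by 3 of 23 higher members (Ccl20, Ccl9 and Csf1) and 2 of 15 lower members (Cxcl1 and Il17rc), and by 3 of 38 members that were not called. A match is a description of letters, not of binding. The 4 promoters printed here are those of called members with at least a 1.5-fold difference that hold either string, 5′ to 3′ on the gene's strand, with the matched letters in capitals. The Cxcl10 promoter (chr5:92348890-92349139, minus strand) holds the interferon string 213 to 204 bases before the start. In Ccl20 (chr1:83116516-83116765, plus strand), Csf1 (chr3:107760470-107760719, minus strand) and Il17rc (chr6:113471205-113471454, plus strand) the kappaB letters run on the opposite strand, so their complement is shown, 80 to 71, 154 to 145 and 236 to 227 bases before the start.
Cxcl10: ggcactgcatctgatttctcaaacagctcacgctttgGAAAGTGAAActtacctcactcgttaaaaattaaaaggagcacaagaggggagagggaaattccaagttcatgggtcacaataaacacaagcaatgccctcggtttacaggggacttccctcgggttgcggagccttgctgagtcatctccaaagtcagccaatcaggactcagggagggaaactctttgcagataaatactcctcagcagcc
Ccl20: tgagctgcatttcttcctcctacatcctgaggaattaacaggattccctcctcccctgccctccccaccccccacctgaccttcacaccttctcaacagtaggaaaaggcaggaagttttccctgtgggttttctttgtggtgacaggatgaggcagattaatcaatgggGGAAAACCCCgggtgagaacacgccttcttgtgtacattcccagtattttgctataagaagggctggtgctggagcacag
Csf1: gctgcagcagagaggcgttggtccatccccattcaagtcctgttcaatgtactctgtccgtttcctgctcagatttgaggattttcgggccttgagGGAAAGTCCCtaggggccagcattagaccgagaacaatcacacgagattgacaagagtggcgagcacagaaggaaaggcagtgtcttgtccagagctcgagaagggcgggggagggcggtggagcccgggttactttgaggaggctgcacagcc
Il17rc: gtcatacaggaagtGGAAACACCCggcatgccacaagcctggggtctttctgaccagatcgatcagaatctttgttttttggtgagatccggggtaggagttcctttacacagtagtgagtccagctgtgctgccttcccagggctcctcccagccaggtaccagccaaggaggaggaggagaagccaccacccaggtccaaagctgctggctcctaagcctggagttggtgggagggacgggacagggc

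Of the chemokine receptors, G protein-coupled receptors through which these ligands act, none of the 4 tested was called by limma, and 1 had an unadjusted p under 0.05. That receptor was Cxcr4, the Cxcl12 receptor known for guiding neural precursors, at -0.09 (adjusted p = 0.065). With the scanner's processed signals Cxcr4 was called lower at -0.31 (adjusted p = 0.035), and the authors' deposited table gave -0.31 (adjusted p of 0.035 in limma on those values). Ccr6, the Ccl20 receptor, was not called at -0.07, but was called lower at -0.22 with processed signals (adjusted p = 0.021) and likewise on the authors' deposited values (-0.22, adjusted p = 0.022). Ccr9 (-0.01) and Cxcr3 (-0.03) were not called, nor were they with those 2 settings. On no array were Ccr1, Ccr2, Ccr4, Ccr7, Ccr8, Ccr10, Cxcr1 and Cxcr6 well above background, and Ccr3, Ccr1l1 and Cxcr2 were so on 1 or 2 arrays only.

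**Figure D3:**
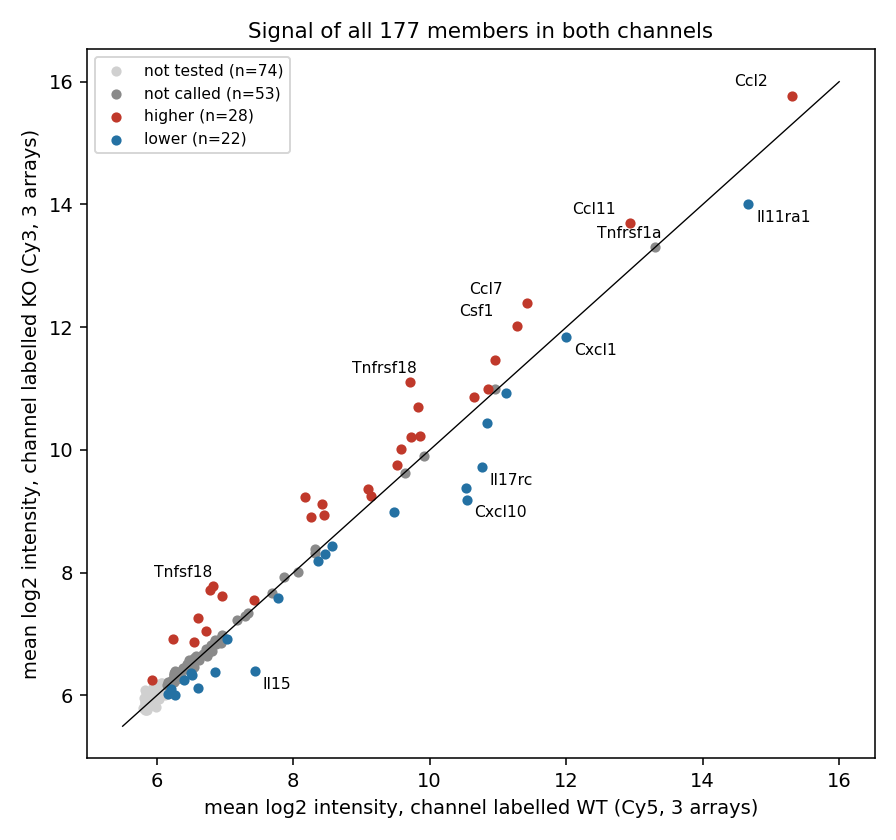
Mean log2 intensity of each of the 177 members in the labelled KO channel (vertical axis, Cy3) against the labelled WT channel (horizontal axis, Cy5), over 3 arrays, with the line of equal signal and colours by call. Members that could not be tested gather at the dim end, and Il15 lies near it in the labelled KO channel.

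The interleukin receptors and antagonists were the other group with large differences both ways. Of 26 tested, 5 were higher, 8 were lower and 13 were not called, with 3 higher and 3 lower by at least 1.5-fold. Il1r2, a decoy receptor that takes up interleukin 1 without signalling, had log2 intensities of 7.71, 7.81 and 7.66 in the labelled KO channel and of 6.79, 6.82 and 6.72 in the labelled WT channel. The channels did not overlap, and Il1r2 was 1.93-fold higher in labelled KO at ratios of 0.93, 0.99 and 0.94 (0.95 ± 0.032, adjusted p = 5.6e-07). The probe lies on chromosome 1 from 40362239 to 40362298 (mm7). Il1rl1, the receptor of the alarm cytokine made by Il33, was 1.61-fold higher at 0.64, 0.70 and 0.72 (adjusted p = 3.2e-06), and a second probe gave 0.37. Il4ra, the signalling chain shared by the receptors of Il4 and Il13, was 1.56-fold higher at 0.76, 0.62 and 0.54 (adjusted p = 2.4e-05). Il1r1, the signalling receptor of interleukin 1, was called higher at 0.13 and called lower at -0.33 under median centring, as was Il3ra at 0.12 and -0.25. Both calls were lost without replicate 1 (adjusted p = 0.051 and 0.067). They were also lost with normexp on all spots (0.053 and 0.24), with processed signals (0.11 and 0.13) and on the authors' deposited values (0.18 and 0.20). That of Il3ra was lost with the channels fitted separately as well (0.057).

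Il1rl2, which encodes a receptor of the interleukin 1 family, was the interleukin receptor with the largest fall in these values. With processed signals and on the authors' deposited values Il12rb1 fell further (-1.59 against -1.16), and as the median over probes Il17rc did (-0.91 against -0.70). The Il1rl2 ratios were -1.10, -1.14 and -1.23, from log2 intensities of 9.39, 9.39 and 9.34 in labelled KO and 10.49, 10.53 and 10.57 in labelled WT. The channels lay apart on every array, and the gene was 2.23-fold lower (-1.16 ± 0.066, SD, n = 3, adjusted p = 4.1e-07). Its other probe gave a smaller value of -0.23, so the size of the fall depended on the probe. Il17rc, a chain of the interleukin 17 receptor, was 2.05-fold lower (-1.04 ± 0.0074, adjusted p = 3.1e-07) with its 3 array ratios between -1.05 and -1.03, and a second tested probe gave -0.78. Il11ra1, the receptor of Il11, was 1.59-fold lower at -0.64, -0.66 and -0.70 (adjusted p = 3.2e-06), and a second probe gave -0.62. Il11ra1 and Ccl27a lie side by side in a region of chromosome 4 known for extra copies of both genes, which these probes may not separate.

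Il12rb1, a receptor chain for Il12 and Il23, was lower at -0.48 ± 0.022 (adjusted p = 1.6e-05). Smaller falls were called for Il10rb (-0.19), Il1rap (-0.18), Il27ra (-0.15) and Il17rd (-0.14), and other tested probes of Il1rap and Il17rd did not pass the threshold. Il17rd was also not called when replicate 1 or replicate 3 was left out (adjusted p = 0.084 and 0.13). With normexp on all spots Il12rb1 (-0.069), Il1rap, Il27ra and Il17rd were not called, while Il12rb1 was -1.59 with processed signals. Il10rb was not called with processed signals (-0.084, adjusted p = 0.18) or on the authors' deposited values (-0.089, adjusted p = 0.16).

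Among the interleukins themselves 1 of 13 tested was higher, 2 were lower and 10 were not called. Il17d, a member of the interleukin 17 family, was 1.41-fold higher at 0.44, 0.47 and 0.58 (adjusted p = 3.8e-05), but lay at 0.03 and was not called under median centring. Il15, which maintains natural killer cells and memory T cells, had log2 intensities of 6.73, 6.23 and 6.24 in the labelled KO channel, where 2 of 3 arrays were well above background, and of 7.57, 7.34 and 7.41 in the labelled WT channel. The channels did not overlap, and Il15 was 2.06-fold lower at -0.84, -1.12 and -1.17 (-1.04 ± 0.18, adjusted p = 8.8e-06). A second probe of Il15 gave -0.19, also past the threshold (adjusted p = 0.0032), and it stood for the gene under a stricter filter on dim probes. Il11 was lower at -0.11 (adjusted p = 0.037), a call lost when replicate 1 or replicate 3 was left out (adjusted p = 0.13 and 0.086). The Il11 call was also lost with normexp on all spots (adjusted p = 0.27) and with processed signals (0.44). The same held on the authors' deposited values (0.38) and with the channels fitted separately (0.26).

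The largest rise among the 103 tested members, in these values though not with processed signals, was in the TNF receptors, where 5 of 16 tested were higher, 1 was lower and 10 were not called. Tnfrsf18 encodes GITR, a co-stimulatory receptor best known on regulatory T cells. Its log2 intensities were 11.04, 11.12 and 11.13 in the labelled KO channel and 9.65, 9.73 and 9.75 in the labelled WT channel. The channels lay far apart, and the ratios of 1.40, 1.39 and 1.38 were nearly the same on all arrays. Tnfrsf18 was 2.62-fold higher in labelled KO (1.39 ± 0.0083, SD, n = 3, adjusted p = 8.9e-08), from a probe on chromosome 4 from 155018282 to 155018341 (mm7). Tnfsf18, which encodes the ligand of that receptor, was higher as well, at 0.86, 0.98 and 1.04. It was 1.94-fold higher (0.96 ± 0.095, adjusted p = 2.0e-06), from log2 intensities of 7.66, 7.81 and 7.87 in labelled KO and 6.80, 6.83 and 6.82 in labelled WT.

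Tnfrsf12a, or Fn14, the receptor of the ligand encoded by Tnfsf12, had ratios of 0.85, 0.79 and 0.98 and was 1.83-fold higher (adjusted p = 3.4e-06), while Tnfsf12 was not called at -0.06. Tnfrsf11b encodes osteoprotegerin, a secreted decoy for the ligand encoded by Tnfsf11, and was 1.60-fold higher at 0.73, 0.72 and 0.59 (adjusted p = 7.8e-06). Its ligand gene Tnfsf11 could not be tested. Tnfrsf21, or death receptor 6, was higher at 0.47 ± 0.043 (adjusted p = 2.2e-05) and was no longer called under median centring. Tnfrsf19, or Troy, a receptor expressed in neural precursors, was higher at 0.27 (adjusted p = 0.0029) but lay at -0.11 under median centring. The main TNF receptors Tnfrsf1a (0.0013) and Tnfrsf1b (0.0093) were not called.

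Of the other TNF ligands, Tnfsf13, or April, was 1.41-fold higher at 0.50 ± 0.027 (adjusted p = 1.4e-05), a call lost under median centring. Tnfsf9, the ligand of the co-stimulatory receptor Tnfrsf9, was lower at -0.13 (adjusted p = 0.012), but not called without replicate 3 (adjusted p = 0.055). Nor was Tnfsf9 called with normexp on all spots (0.26), under median centring (0.36) or with the channels fitted separately (0.076). Tnf, the founding ligand, was called lower at -0.10 (adjusted p = 0.039), and it was the called member nearest to 0. That call was lost when any replicate was left out (adjusted p = 0.10, 0.11 and 0.12 without replicates 1, 2 and 3), and Tnf lay at 0.05 under median centring.

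The TNF-induced proteins gave 2 higher, 2 lower and 1 not called of 5 tested. Tnfaip2, a TNF-induced protein first known from endothelial cells, had ratios of 1.13, 1.10 and 0.97 from log2 intensities of 9.29, 9.31 and 9.11 in labelled KO and 8.16, 8.20 and 8.14 in labelled WT. The channels did not overlap, and Tnfaip2 was 2.09-fold higher (1.07 ± 0.088, adjusted p = 9.5e-07). Tnfaip6, a secreted hyaluronan-binding protein, was lower, at -0.59, -0.33 and -0.56 with array 2 nearest to 0 (-0.49 ± 0.14, adjusted p = 1.9e-04). Tnfaip8, a regulator of cell death, was lower at -0.40 ± 0.052 (adjusted p = 6.9e-05). Tnfaip1 was higher at 0.24 but lay at -0.16 under median centring. The 3 tested members whose names match the rule without being cytokines or receptors, Psmg2, Tnfsg5 and Il4i1, were not called by limma, and 1 of them had an unadjusted p under 0.05.

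In the colony-stimulating factors 3 of 5 tested genes were higher and 2 were not called. Csf1, the growth factor on which microglia and macrophages depend, had ratios of 0.71, 0.70 and 0.82 from log2 intensities of up to 12.04 in labelled KO and of 11.29, 11.34 and 11.20 in labelled WT. The channels did not overlap, and Csf1 was 1.68-fold higher (0.75 ± 0.065, adjusted p = 3.5e-06), but lay at 0.26 and was not called under median centring (adjusted p = 0.057). Its receptor gene Csf1r was not called at -0.02, and Csf1r was 0.13 with the scanner's processed signals. Csf2ra, a chain of the Csf2 receptor, was higher at 0.20 but lay at -0.24 under median centring.

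Detection in 1 channel only was seen for 4 members, for which a bound on the fold was sought under this background correction. The bound sets the bright channel's mean against whichever was higher on each array, the dim probe's own signal or that of the dimmest well-detected probe, and is open to dye bias. For all 4 the bound equalled the measured fold, so the folds given here are measured values and not minimum effects. Csf2, a growth factor of granulocytes and macrophages, was well above background in labelled KO only and was 1.25-fold higher there (adjusted p = 1.3e-04). The other 3 were well above background in labelled WT only. Tnfrsf13c, the BAFF receptor of B cells, was 1.19-fold lower in labelled KO (adjusted p = 0.0010), Ccl1 1.11-fold lower (adjusted p = 0.0078) and Tnf 1.07-fold lower (adjusted p = 0.039). With normexp on all spots none of these 4 was called, the adjusted p ranging from 0.091 for Csf2 to 0.47 for Tnf. All 4 lay under their bounds there, with log2 ratios of 0.034 for Csf2, -0.025 for Tnfrsf13c, -0.015 for Ccl1 and -0.0097 for Tnf. With the scanner's processed signals all 4 were called the same way and lay further from 0. There Csf2 was at 2.60, Ccl1 at -1.67, Tnfrsf13c at -1.39 and Tnf at -0.67.

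Ligands and receptors were next set side by side in 22 listed pairs, of which 11 had both partners tested. In 1 pair both were higher (Tnfsf18 with Tnfrsf18), and in 1 both were lower (Il11 with Il11ra1). In 1 the first gene was higher and the second lower (Il17d with Il17rd), but Il17rd is not an established receptor of Il17d. The calls of Il11, Il17d and Il17rd were also each lost in some settings, as given above. The ligand alone was called in 6 pairs: Cxcl12 with Cxcr4, Csf1 with Csf1r, Cxcl10 with Cxcr3, Il15 with Il15ra, Tnf with Tnfrsf1a, and Tnfsf9 with Tnfrsf9. The receptor alone was called in 2 pairs, Tnfrsf12a with Tnfsf12 and Tnfrsf13c with Tnfsf13b. Whether pairs moved together beyond chance was not tested.

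Many members lie in clusters of related genes, and neighbours did not share a direction throughout. In the interleukin 1 receptor cluster on chromosome 1 (40362239 to 40766260, mm7), Il1r2, Il1r1 and Il1rl1 were higher while Il1rl2, placed between Il1r1 and Il1rl1, was lower. Il18r1 and Il18rap at its end were not tested. In the CC chemokine cluster on chromosome 11 (82118723 to 83734514), Ccl2, Ccl7, Ccl11, Ccl12 and Ccl9 were higher, Ccl1 was lower and Ccl5 was not called, with 4 of 11 members not tested. The CXC chemokine cluster on chromosome 5 (90732453 to 92348495) held 1 higher gene (Cxcl5), 3 lower genes (Ppbp, Cxcl1 and Cxcl10) and 3 not called. The calls of Ppbp and Cxcl1 were each lost in some settings, as given above. Under median centring Il1r1 was called lower, Ccl2 and Cxcl5 lay below 0 and Ccl1 lay above it. Next to Tnfrsf18 on chromosome 4, the related Tnfrsf4 was not called at 0.06.

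**Figure D4:**
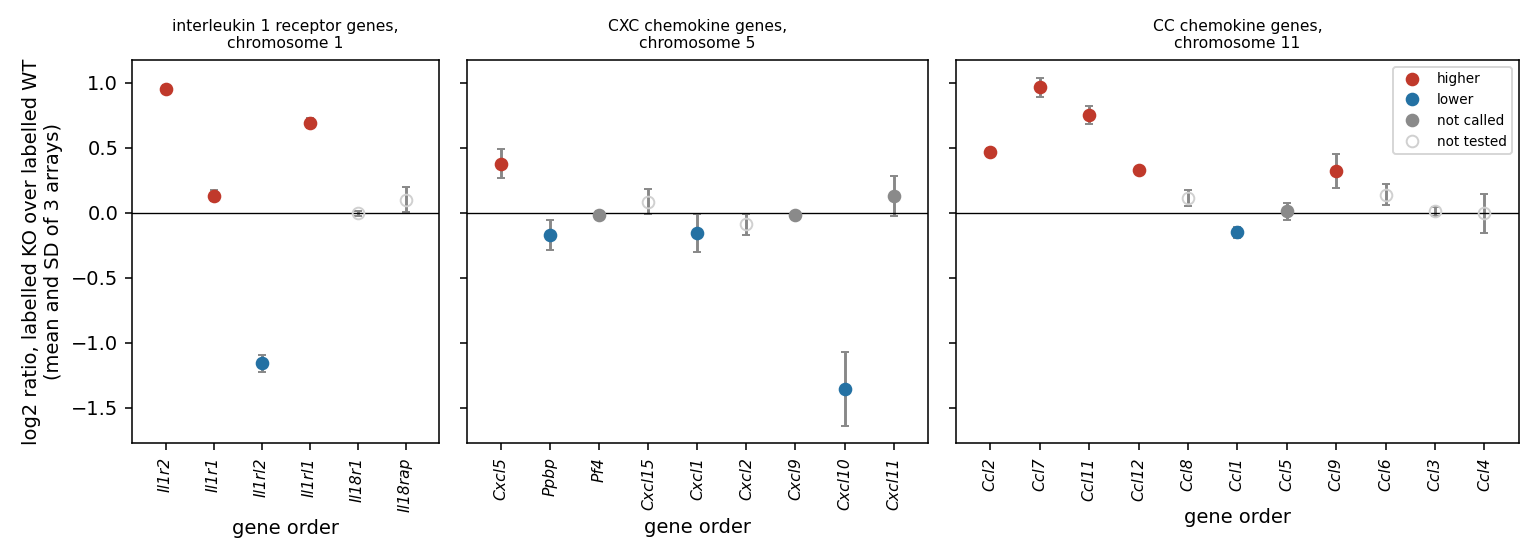
Mean log2 ratio (labelled KO over labelled WT) (points, with SD over 3 arrays as bars) for members in 3 gene clusters, in their order along chromosomes 1, 5 and 11, coloured by call. Il1rl2 lies at -1.16 between Il1r1 and Il1rl1, which lie above 0, and Cxcl10 lies at -1.35 beside Cxcl9 and Cxcl11.

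Where a member had more than 1 tested probe, the brightest stood for the gene. Of 23 such members, 8 were called with another probe past the threshold in the same direction and 3 were called with no other probe past it (Cxcl12, Il1rap and Il17rd). A further 4 were not called although another probe passed, namely Ccl19, Csf2rb, Il17ra and Psmg2, and 8 had no probe past the threshold.

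Genes of the same families that are named outside the rule were measured as well. Of 30 tested, 11 were higher, 9 were lower and 10 were not called, with a median of 0.02. Over all tested genes 22.5% were higher and 25.5% lower. Cx3cl1, or fractalkine, a membrane-bound chemokine of neurons, was 2.99-fold higher (1.58 ± 0.047, adjusted p = 8.3e-08), and Tslp, an epithelial cytokine, was higher at 0.75. Ngfr, the neurotrophin receptor of the TNF receptor family, fell to -2.07 ± 0.11 and Eda, a TNF ligand of skin development, to -0.53. Of 46 tested receptor signalling adaptors 15 were higher, 13 were lower and 18 were not called, with a median of -0.05. These counts stand beside the same 22.5% and 25.5%. Under median centring 1 adaptor was higher and 35 were lower, beside 4.21% and 52.9% of all tested genes. Tradd (0.49) and Irak2 (0.48), adaptors of TNF and interleukin 1 receptors, were higher, and both calls were lost under median centring. Casp8, the protease of death receptor complexes, fell to -0.77 ± 0.12, and Socs1, an inhibitor of JAK kinases, to -0.37.

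Because these genes are known from immune and vascular cells, markers of such cells were measured beside them. The shares of all tested genes were again 22.5% higher and 25.5% lower. Of 17 microglia and macrophage markers 7 were tested, with 1 higher (Cd68, 0.19), 2 lower (Tyrobp, -0.28, and Cd52, -0.20) and 4 not called. Ptprc, Adgre1, C1qc, Trem2, P2ry12 and Spi1 were well above background on no array, and the list's summed log2 level was 9.71 in labelled KO and 9.73 to 9.77 in labelled WT. Of 12 lymphocyte markers 5 were tested and none was called by limma (1 at an unadjusted p under 0.05), with Cd3d, Cd3g, Ms4a1 and Cd79b on no array and summed levels of 9.15 to 9.18 and 9.17 to 9.18. Endothelial markers gave 2 higher of 6 tested, Flt1 at 1.12 and Emcn at 0.21, with summed levels of 13.28 to 13.33 in labelled KO and 12.82 to 12.89 in labelled WT, and Pecam1, Cdh5 and Tie1 were on no array. All 9 fibroblast and mesenchymal markers were tested, with 1 higher (Postn, 0.95), 6 lower (Col1a2 at -1.48 the furthest) and 2 not called, and summed levels of 17.34 to 17.39 against 17.70 to 17.82. Neural stem cell markers summed to 15.81 to 15.85 against 16.06 to 16.12. Pax6 (0.24) and Prom1 (0.14) were the 2 higher, and Sox9 (-1.19), Olig2 (-0.63) and Sox2 (-0.36) were among the 8 lower. The part of fibroblast, endothelial and neural stem cell markers in the members' differences was not tested.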

How the data were processed

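The deposited files hold spot and background intensity values made with Agilent Feature Extraction 9.5.3.1, per the file headers, with probe positions on mm7. The deposited scanner log10 ratio (red over green) was not used as a value. The authors' deposited value table was read as log2 ratios of labelled KO over labelled WT and used as an alternative only. Its centring is not stated.

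Signals were corrected with limma 3.58.1 in R 4.3.3 (normexp, offset 50, fitted on spots without outlier marks), normalized by loess within each array, and averaged per probe. The offset draws the ratios of dim probes toward 0. Probes were renamed through RefSeq tables (GRCm38.p6) by accession (23082 probes) or symbol (9655), and 8437 kept the file's name. Each array pairs the RNA labelled KO and WT of 1 replicate number, and the mean ratio was tested against 0 (lmFit, eBayes, two-sided, 2 residual degrees of freedom). Channel intensities were taken after Aquantile scaling. The method was tested on simulated ratios with independent noise for each gene. The simulated ratios held no dye bias and no trend across an array, so that test does not cover either. Precision is limited by the number of arrays.

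The members, gene lists and tests were chosen with earlier results of these data known. Named by rule were members past the threshold with at least a 1.5-fold difference, the largest called member of each role in each direction, members detected in 1 channel only, tested partners of the listed pairs, and, of other lists, the 2 largest in each direction. Other members and markers were named after their values were seen.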

Additional observations from a re-analysis of the deposited data

How the results depend on the processing

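All 13 higher and 5 lower members with at least a 1.5-fold difference kept their direction in the 12 alternatives, and 18 of the 50 called members were called the same way in every one of them. Counts left their range as follows. With normexp fitted on all spots, 8 members were lower, 2317 of all tested genes were higher and 8 signalling adaptors were higher. With median centring, 14 members were higher, 761 of all genes were higher and 9560 lower, 5 family genes outside the rule were higher, and 1 adaptor was higher and 35 lower. With the authors' deposited values, 9 adaptors were higher. With the channels fitted separately and no replicate block, 3038 of all genes were lower, while 25 members were higher and 15 lower. Leaving out 1 replicate gave 26 to 30 higher and 17 to 21 lower members, 3106 to 3856 higher and 3464 to 4090 lower genes over all.

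Under median centring 8 members called higher fell below 0, Ccl2 (-0.18) among them, and 2 called lower, Ccl1 and Tnf, rose above it. Signs turned further as follows. The log2 ratio of Tnfrsf1a was -0.011 with normexp on all spots, -0.0026 with the scanner's processed signals, -0.0096 with an offset of 10, -0.55 with median centring and -0.011 to 0.014 with 1 replicate left out. That of Csf1r was 0.13 with processed signals, 0.097 with median centring, 0.12 in the authors' table, 0.0029 as the median over probes and -0.045 to 0.022 with 1 replicate left out. Psmg2 was -0.027, -0.43, -0.021 and -0.039 with processed signals, median centring, the authors' table and the median over probes. Il15ra was -0.019, -0.037 and -0.0091, and Tnfrsf9 0.33, 0.075 and 0.31, with the first 3 of these settings. With 1 replicate left out Tnfrsf9 was -0.031 to 0.031. Cxcr3 was 0.054 with median centring and 0.0023 in the authors' table. With median centring Ccl1 was 0.021, Tnf 0.052 and Tnfsf12 0.023. The cause of these changes was not tested. A slide block was not run, as all arrays share 1 slide. The dim members lay close to background, and their sizes differed between the 3 background corrections. Sizes of the brighter Tnfaip2, Ccl20 and Il4ra differed in the same order.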
